A study of Mus musculus with 5 samples.

Results

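Genes of mitosis and chromosome segregation were examined in hearts of mouse embryos at E12.5, a stage at which the muscle wall is growing and its cells still divide. The set holds 36 named genes for mitotic kinases and cyclins, the spindle checkpoint, the kinetochore, condensin, anaphase onset and cytokinesis. Its members are all probe sets whose platform annotation gives 1 of these symbols and no other. They came to 58 probe sets of 33 genes, out of 20380 probe sets of 12393 genes used. No probe set with a single symbol was found for the cyclin B1 gene Ccnb1, the passenger complex gene Cdca8 (borealin) or the separase gene Espl1. Their levels were thus not measured, and they enter only the counts of promoter motifs.

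All 5 samples were whole hearts of wild-type embryos at E12.5, with strain 129P2/OlaHsd backcrossed to C57BL/6 for 2 generations per the labels, and no other group was analysed here. Each heart was measured on its own Affymetrix 430A array after amplification of 10 ng of total RNA, and hearts are named here by their replicate numbers 6 to 10. The labels do not say whether the embryos were littermates, so the spread measures only differences between these hearts. Levels are log2 of the intensity plus 16, and SDs are over 5 hearts. A probe set was called detected where it exceeded the background of its array in all 5 hearts. That background was the 95th percentile of 79 probe sets of genes from unrelated tissues such as lens, retina, testis and pancreas, and lay between 4.95 and 5.40.

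The arrays carried the signature of the labelled tissue, with all 12 listed cardiomyocyte genes detected. Pearson's r across probe sets was between 0.962 and 0.981 for the 10 pairs of hearts, which describes genes and not independent replicates. Heart 7 stood apart in several measures. Its background was 5.40, against 4.95 to 5.17 in the others, and 10654 of its probe sets exceeded background, against 11874 to 13013. The 3 lowest correlations, 0.962, 0.965 and 0.968, were all in pairs with heart 7. Its ratio of 3′ to 5′ signal of the Gapdh control was 5.69, against 3.55 or less in the other hearts. The same ratio for the actin control was 4.27 there and highest, at 4.48, in heart 8. Heart 7 also gave the highest level for 14 of 19 probe sets of 12 erythroid genes, 9 of which were detected, and the summed intensity of these was 56034 in heart 7, 54289 in heart 8 and 37077 to 39300 in the others.

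A dividing cell enters mitosis when the kinase CDK1 is activated by B-type cyclins, condenses its chromosomes and attaches them to the spindle through kinetochores. The spindle checkpoint holds back the ubiquitin ligase APC/C until every kinetochore is attached, after which securin and cyclin B are destroyed, separase opens the cohesin rings and the cell divides. Transcripts of these proteins rise together in G2 and M phase and are low in resting cells, so in a tissue they mark cycling cells. Cardiomyocytes of the embryo divide in this way, whereas most of them leave the cell cycle soon after birth.

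Nearly the whole mitotic programme gave signal in every heart. Of the 33 measured genes, 30 had at least 1 probe set detected in all 5 hearts (90.9%), against 54.5% of all genes. By probe set, 46 of 58 were detected (79.3%), against 49.1% of all probe sets, while 8 exceeded background in some hearts and 4 in none. The 3 genes short of detection were the kinase genes Aurkb and Nek2 and the cytokinesis gene Anln, each above background in some hearts. Leaving out heart 7 added Anln, for 31 genes and 47 probe sets. Within 7 genes, detected and undetected probe sets stood side by side, so the level of a gene depends on which probe set is read.

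**Figure D1:**
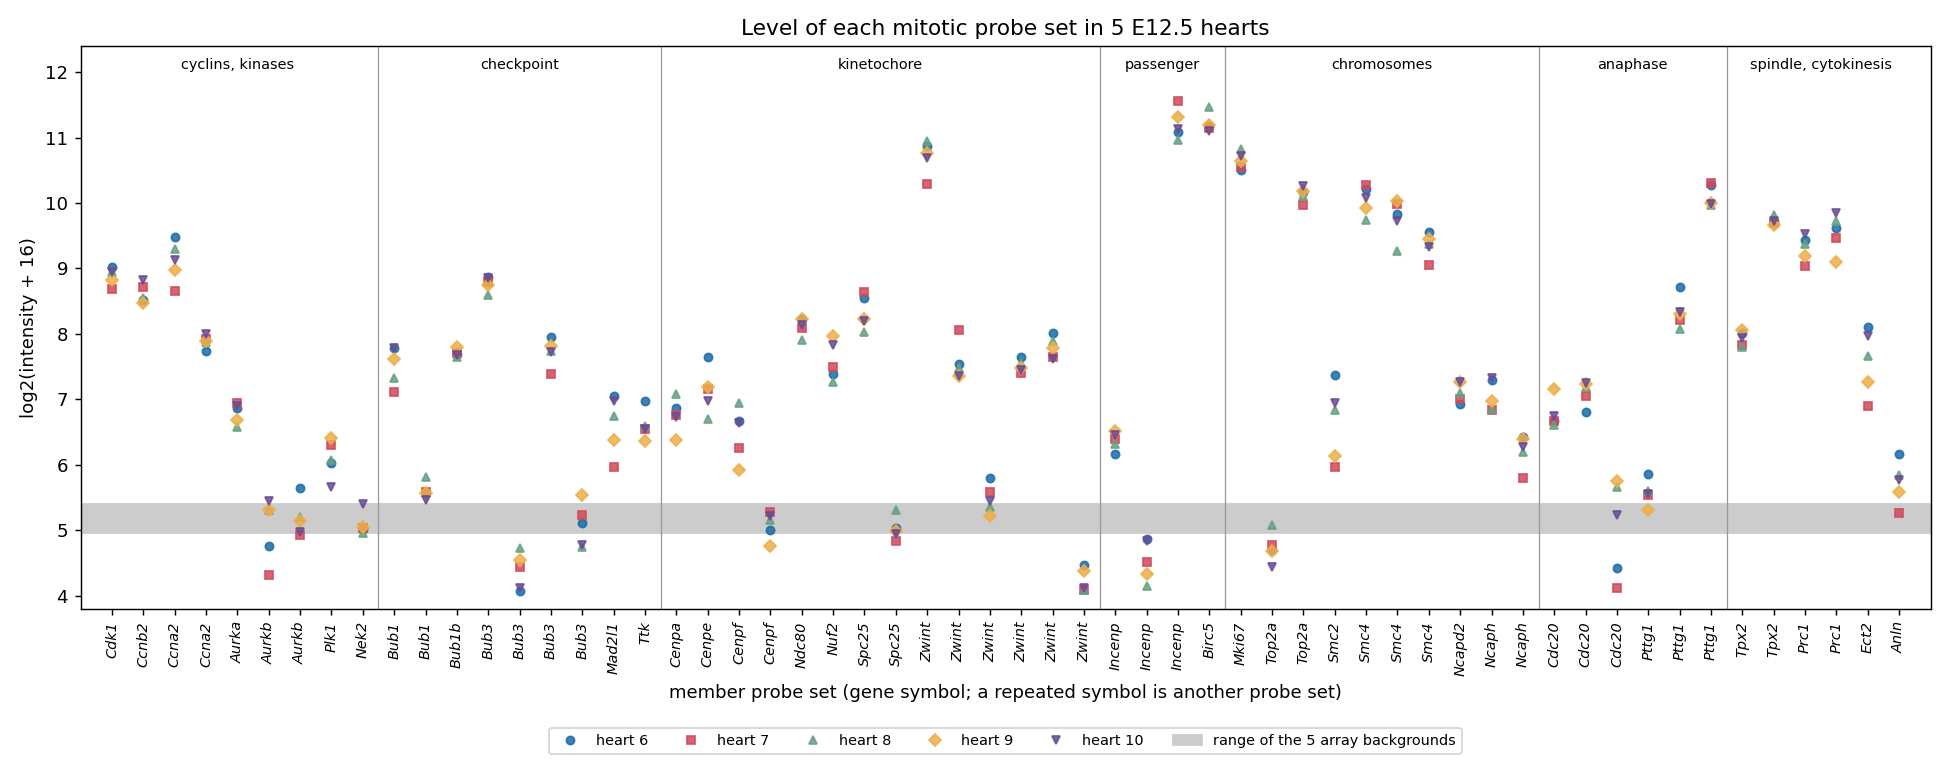
Level of each of the 58 mitotic probe sets, as log2 of the intensity plus 16, in hearts 6 to 10 (1 symbol per heart), ordered by role, with the range of the array backgrounds (4.95 to 5.40) in grey. The hearts lie close together for most probe sets, and the 12 probe sets that were not detected in all hearts sit in or under the grey band for at least 1 heart.

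The promoters of these genes share short sequence elements that the choice of members did not use. G2 and M phase genes are known for the CHR element (cell cycle genes homology region), which is bound by the DREAM and MuvB complexes, and for CCAAT boxes, which are bound by NF-Y. RefSeq promoter windows (GRCm38.p6, 250 bases before to 50 after the annotated start, 300 in all) were found for 31 of the 36 genes, all but Aurkb, Smc4, Incenp, Ccna2 and Tpx2. The 31 include Ccnb1, Cdca8 and Espl1, which had no probe set with a single symbol. A CHR was searched as TTTGAA or TTCGAA and a CCAAT box as CCAAT, on both strands. The only matches of the 2 motifs that share a letter in the members' windows are in Cdca8, at +19. The bases before the start of 5 members are printed because they show these elements in the gene for the central kinase, a cyclin, an APC/C activator, a chromosome enzyme and a checkpoint protein. Matches are in capitals on either strand, so that ATTGG is a CCAAT box and TTCAAA a CHR on the opposite strand.
Cdk1 (chr10:69352913-69353032, minus strand): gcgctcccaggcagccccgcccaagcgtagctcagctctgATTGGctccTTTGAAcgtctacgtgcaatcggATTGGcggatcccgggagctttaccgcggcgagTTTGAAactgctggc
Ccnb2 (chr9:70421555-70421674, minus strand): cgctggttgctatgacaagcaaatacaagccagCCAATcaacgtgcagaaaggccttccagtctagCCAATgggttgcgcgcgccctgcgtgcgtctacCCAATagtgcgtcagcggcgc
Cdc20 (chr4:118437344-118437463, minus strand): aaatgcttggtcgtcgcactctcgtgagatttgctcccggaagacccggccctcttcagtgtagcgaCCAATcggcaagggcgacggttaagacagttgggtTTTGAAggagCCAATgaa
Top2a (chr11:99024190-99024309, minus strand): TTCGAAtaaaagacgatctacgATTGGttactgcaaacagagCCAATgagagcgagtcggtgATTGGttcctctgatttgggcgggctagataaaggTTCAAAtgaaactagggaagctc
Bub3 (chr7:131560250-131560369, plus strand): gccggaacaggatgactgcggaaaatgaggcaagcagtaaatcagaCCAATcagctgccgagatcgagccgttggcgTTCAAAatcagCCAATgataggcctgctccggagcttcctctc

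Each of the printed stretches is 120 bases long and ends at the base before the annotated start. In Cdk1, CCAAT boxes 32 bases apart alternate with CHR matches at -71 and -15, counted from +1 at the start. In Ccnb2, 3 CCAAT boxes begin at -87, -54 and -21, each 33 bases from its neighbour, and CHR matches lie at -167 and +5, outside the printed stretch. Cdc20 and Bub3 each hold a CHR match between a pair of CCAAT boxes, 45 bases apart in Cdc20 and 42 in Bub3. Top2a has 6 CCAAT boxes in its whole window and 4 CHR matches.

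Over the 31 members with a window, 22 held a CHR match (71.0%), against 21.7% of all 27025 genes with a window and 17.3% of the 9888 such genes on the array. A CCAAT box was found in 24 (77.4%), against 41.1% of all genes and 42.3% of those on the array. A CCAAT box was also found in 12 of 16 DNA replication genes, 24 of 39 other mitotic genes (61.5%) and 6 of 10 cardiomyocyte genes. A CHR was found in 4, 21 and 2 of these, in the same order. Both motifs were present in 20 members (64.5%), against 8.61% of all genes and 6.88% of those on the array. Among other genes of the cell cycle, both motifs were present in 15 of 39 other mitotic genes (38.5%), 4 of 16 DNA replication genes and 0 of 8 G1 genes. The mean GC content of the members' windows was 58.6%, against 53.6% for all genes and 59.1% for genes on the array.

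Taking 1 window for each gene, 50 of 53 CCAAT boxes lay before the start, with a median position of -65. CHR matches lay closer to the start, 21 of 32 within 50 bases of it. The window holds 250 bases before the start and 50 after it, so most of its bases lie before the start. Positions of matches in other genes were not compared. Neighbouring CCAAT boxes on the same strand began 23 to 128 bases apart (26 pairs), and 12 of these pairs were 28 to 38 bases apart. A pair at that spacing was present in 10 of 31 members (32.3%), in 5 of 39 other mitotic genes (12.8%), in 6.25% of replication genes, in 2.87% of genes on the array and in 1.92% of all genes. This range of spacings was chosen after the members' positions were seen. Birc5, Mad2l1, Ncaph, Nuf2 and Pttg1 held neither motif in this window. All 5 were detected in every heart, but so were most measured members with a window, 26 detected against 2 not. A match describes these letters and does not show binding.

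**Figure D2:**
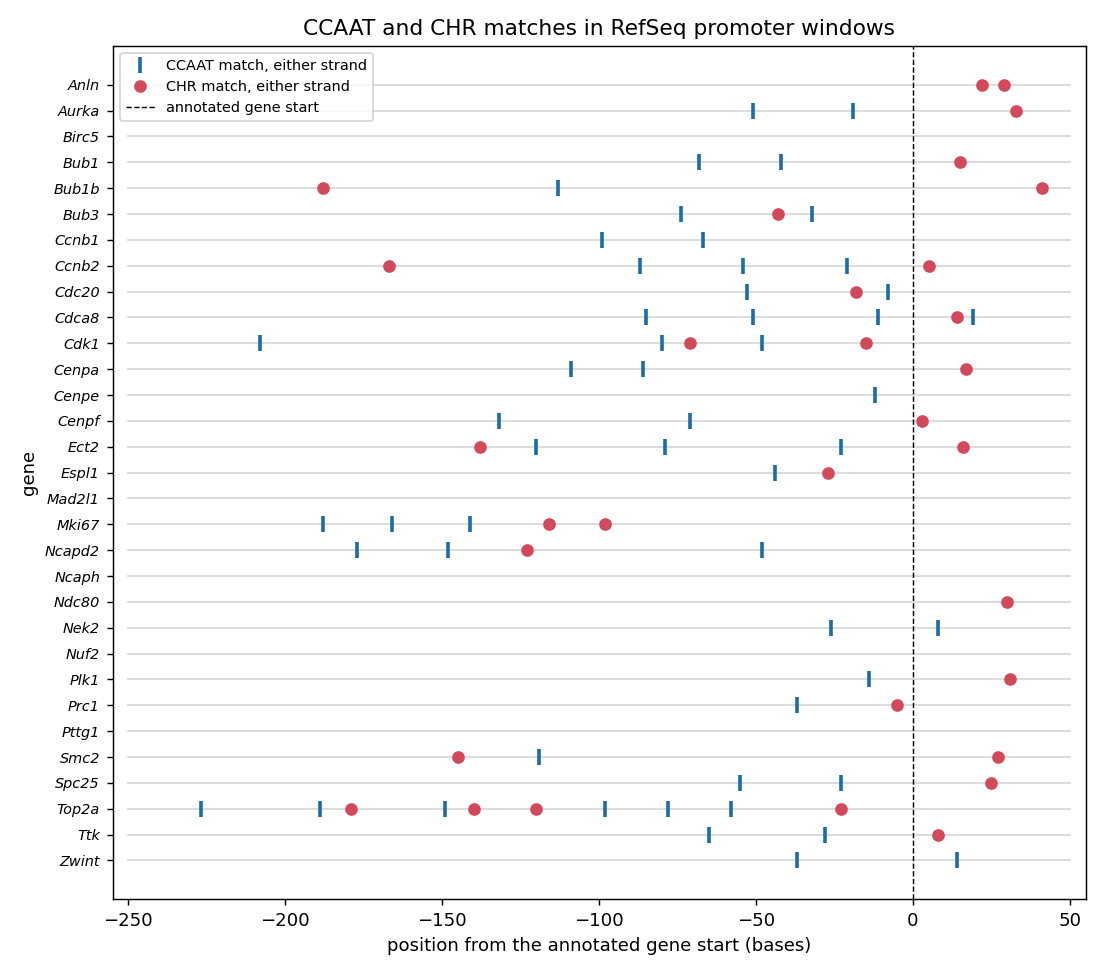
Positions of CCAAT boxes (blue bars) and CHR matches (red points) on either strand, in bases from the annotated gene start, in the promoter window of 31 members. CCAAT boxes lie before the start in 50 of 53 cases, and 21 of 32 CHR matches lie within 50 bases of it. The window holds 250 bases before the start and 50 after it.

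The cyclin and kinase genes that drive entry into mitosis were detected for the most part, 5 of 7 measured. Cdk1, the kinase that triggers mitosis, had levels of 9.02, 8.69, 8.95, 8.82 and 8.95 in hearts 6 to 10. Its partner Ccnb2, a B-type cyclin, had 8.52, 8.72, 8.54, 8.47 and 8.82. In both, the lowest and highest hearts differed by 0.34 on the log2 scale, and in neither did the same heart lead. Ccna2, the cyclin of S and G2 phase, was read by a pair of probe sets that ordered the hearts differently. The first (1417910_at) had 9.48, 8.66, 9.30, 8.97 and 9.13 in hearts 6 to 10, and the second (1417911_at) only 7.74 to 7.99, with its lowest value in heart 6.

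Among the mitotic kinases, Aurka, which acts at the centrosome and spindle poles, had a level of 6.79 ± 0.15 (SD, n = 5), with 6.58 in heart 8 and 6.94 in heart 7 as its extremes. Plk1, which controls spindle assembly and mitotic exit, had 6.09 ± 0.29, lowest in heart 10 at 5.66 and highest in heart 9 at 6.41. Both kinases exceeded background in all hearts.

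Aurkb, the kinase of the chromosomal passenger complex, was read by probe sets of the kinds _x_at and _s_at, whose probes can match other transcripts, and neither was detected in all hearts. The first (1424128_x_at) had 4.75, 4.32, 5.31, 5.31 and 5.44 in hearts 6 to 10, above background in hearts 8, 9 and 10. The second (1451246_s_at) had 5.64, 4.93, 5.20, 5.14 and 4.97, above background in hearts 6, 8 and 9. The heart that was highest in one was below background in the other. Nek2, a kinase of centrosome separation, had 5.01, 5.03, 4.96, 5.04 and 5.40 in hearts 6 to 10 and exceeded background in hearts 9 and 10. These values sit at the limit of detection, where the arrays cannot tell low from absent transcript.

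All 5 spindle checkpoint genes were detected. Bub1b, which encodes the checkpoint protein BUBR1, was among the steadiest members, with 7.69, 7.71, 7.65, 7.80 and 7.68 in hearts 6 to 10 and an SD of 0.06. The kinase gene Bub1 had 7.78, 7.11, 7.33, 7.61 and 7.78 by 1 probe set (1424046_at), lowest in heart 7, and 5.46 to 5.81 by the other. Ttk, the kinase MPS1 that starts checkpoint signalling, had 6.60 ± 0.23, with 6.97 in heart 6 and 6.36 in heart 9. Mad2l1, whose product MAD2 is the core of the inhibitory complex, had 7.05, 5.97, 6.75, 6.38 and 6.98 in hearts 6 to 10, a 2.12-fold range on this scale. Hearts 6, 8 and 10 lay above 6.7 in Mad2l1 and hearts 7 and 9 below 6.4.

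Bub3, an adaptor that brings checkpoint kinases to kinetochores, shows how far a gene's reading can depend on the probe set. Of its 4 probe sets, 1416815_s_at had 8.77 ± 0.11 and 1448473_at had 7.72 ± 0.21, both detected and both highest in heart 6. The probe set 1459918_at exceeded background in heart 9 alone, at 5.54, and 1448058_s_at in none, at 4.38 ± 0.28.

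The 7 genes of the centromere and kinetochore were all detected by at least 1 probe set. Cenpa, the histone variant that marks centromeres, had 6.87, 6.76, 7.08, 6.38 and 6.73 in hearts 6 to 10. Cenpe, a kinesin that moves chromosomes to the spindle equator, had 7.64, 7.15, 6.70, 7.19 and 6.98. The hearts thus fell in different orders for these 2 genes, with heart 8 highest for Cenpa and lowest for Cenpe. Cenpf, a large protein of the outer kinetochore, had 6.66, 6.26, 6.95, 5.92 and 6.63 by 1427161_at, and 5.08 ± 0.21 by a second probe set that was above background in hearts 8 and 10.

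The NDC80 complex couples kinetochores to microtubules, and 3 of its subunits were among the members. Ndc80 had 8.11 ± 0.13 with a range of 7.90 to 8.23, Nuf2 had 7.58 ± 0.30 with 7.26 to 7.96, and Spc25 had 8.33 ± 0.25 with 8.03 to 8.64 by its detected probe set. The other Spc25 probe set had 5.02 ± 0.18 and exceeded background in 2 hearts. By their detected probe sets all 3 genes were lowest in heart 8, while the highest heart was 6 for Ndc80, 9 for Nuf2 and 7 for Spc25. Zwint, a kinetochore scaffold protein, had 6 probe sets, of which 5 were detected. Its probe set 1423724_at had 10.87, 10.29, 10.95, 10.77 and 10.69 in hearts 6 to 10, lowest in heart 7. In contrast 1427539_a_at had 7.54, 8.06, 7.47, 7.35 and 7.35, highest in heart 7. The remaining 3 detected Zwint probe sets had mean levels from 5.48 to 7.79, each highest in heart 6. The order of hearts by 1 Zwint probe set was therefore not that of the gene.

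Of the chromosomal passenger genes, which guide Aurora B to centromeres and then to the midzone, Incenp and Birc5 were measured and detected. Birc5, which encodes survivin, had 11.18, 11.14, 11.47, 11.19 and 11.10 in hearts 6 to 10, highest in heart 8. Incenp, the scaffold of the complex, had 6.37 ± 0.14 by 1423092_at, while 1439436_x_at read 11.21 ± 0.23 and 1423093_at stayed below background in all hearts at 4.54 ± 0.32. The second of these is of the kind that can match other transcripts.

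Genes of chromosome structure were detected in 6 of 6 cases. Mki67, the proliferation marker Ki-67 that coats mitotic chromosomes, had 10.50, 10.55, 10.82, 10.64 and 10.72 in hearts 6 to 10, a range of 0.32. Top2a, the topoisomerase that untangles sister chromatids, had 10.16, 9.97, 10.10, 10.19 and 10.26 by 1454694_a_at and was below background in all hearts by 1427724_at, at 4.73 ± 0.23. Both detected readings varied little, and the hearts at either end of Mki67 (6 and 8) were not those at either end of Top2a (7 and 10).

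Condensin folds chromosomes into compact rods around the paired ATPases SMC2 and SMC4. Smc2 had 7.37, 5.96, 6.84, 6.14 and 6.94 in hearts 6 to 10, a 2.66-fold range on this scale. Smc4 shared its highest and lowest hearts by 1 of 3 probe sets. It had 10.22, 10.27, 9.74, 9.93 and 10.07 by 1427275_at and 9.83, 9.98, 9.26, 10.03 and 9.73 by 1427276_at, both lowest in heart 8. By 1452197_at it had 9.56, 9.05, 9.37, 9.45 and 9.33, highest in heart 6 and lowest in heart 7, as Smc2 was. The condensin I subunit genes Ncapd2 (7.11 ± 0.15) and Ncaph (7.05 ± 0.24 by 1423920_at and 6.22 ± 0.25 by 1436707_x_at) were detected too. Both Ncaph probe sets were lowest in heart 7, at 6.83 and 5.79, and Ncapd2 was lowest in heart 6.

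Both measured genes of anaphase onset were detected. Cdc20, which activates APC/C once the checkpoint is satisfied, had 6.66, 6.67, 6.61, 7.16 and 6.75 in hearts 6 to 10 by 1416664_at and 6.80, 7.05, 7.18, 7.24 and 7.25 by 1439377_x_at. The probe set 1439394_x_at had 4.42, 4.12, 5.66, 5.75 and 5.23, below background in hearts 6 and 7 and above it in the others. Its SD of 0.73 was the largest among the members, a 3.11-fold range, against SDs of 0.22 and 0.19 for the other Cdc20 probe sets. Probe sets of the kind _x_at can match other transcripts. Pttg1, which encodes securin, was detected by each of 3 probe sets. They had 10.11 ± 0.17 (1438390_s_at), 8.33 ± 0.23 (1424105_a_at) and 5.57 ± 0.20 (1419620_at). Heart 6 was highest for the latter 2 and heart 7 for the first, at 10.31 against 10.28 in heart 6.

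Of the spindle and cytokinesis genes, 3 of 4 were detected. Tpx2, which targets Aurora A to the spindle, had 9.73, 9.70, 9.81, 9.66 and 9.72 in hearts 6 to 10 by 1428105_at and 7.93 ± 0.11 by 1428104_at. The first of these had the smallest SD of all members, 0.05. Prc1, which bundles midzone microtubules, had 9.44, 9.04, 9.38, 9.19 and 9.52 by 1423774_a_at and 9.61, 9.47, 9.72, 9.10 and 9.85 by 1423775_s_at, with heart 10 highest in both. Ect2, the exchange factor that activates RhoA at the division plane, had 8.10, 6.89, 7.66, 7.27 and 7.96 in hearts 6 to 10. Anln, the anillin of the contractile ring, had 6.17, 5.26, 5.84, 5.58 and 5.76 and fell short of background in heart 7 alone. Ect2 and Anln were both highest in heart 6 and lowest in heart 7, with heart 9 next to lowest.

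Differences between hearts were small for most members and none passed a test of variance. Each probe set's variance over hearts was set against the variance that limma's prior gives for probe sets of that level. By this test 0 of 58 member probe sets passed at an adjusted p under 0.05, and 9 of 20380 probe sets did (0.0442%), none of them a member. Those 9 included the Y-linked gene Eif2s3y (SD 2.91) and the X-linked gene Xist (SDs of 2.43, 1.87 and 1.64 by its called probe sets). The part of embryo sex in the differences between hearts was not tested. At an unadjusted p under 0.05 there were 3 member probe sets (5.17%), close to the 4.33% of all probe sets. They were 1439394_x_at of Cdc20 (SD 0.73, unadjusted p = 0.00776, adjusted p = 0.768), Smc2 (SD 0.59, unadjusted p = 0.0217, adjusted p = 0.960) and Ect2 (SD 0.50, unadjusted p = 0.0480, adjusted p = 0.960), each by limma's prior variance over 5 hearts.

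The median SD of the member probe sets was 0.221, against 0.266 over all probe sets, and the median coefficient of variation of their intensities was 19.4%. Their SD lay below the prior SD of their level in 38 of 58 cases (65.5%), against 54.1% of all probe sets. Among detected probe sets the medians were 0.214 for members and 0.247 for all. In simulated data, a shift of 2 log2 units in 1 heart was called for 24 of 100 probe sets and a shift of 4 for 100 of 100, so differences of the size seen here were mostly not detectable by this test.

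**Figure D3:**
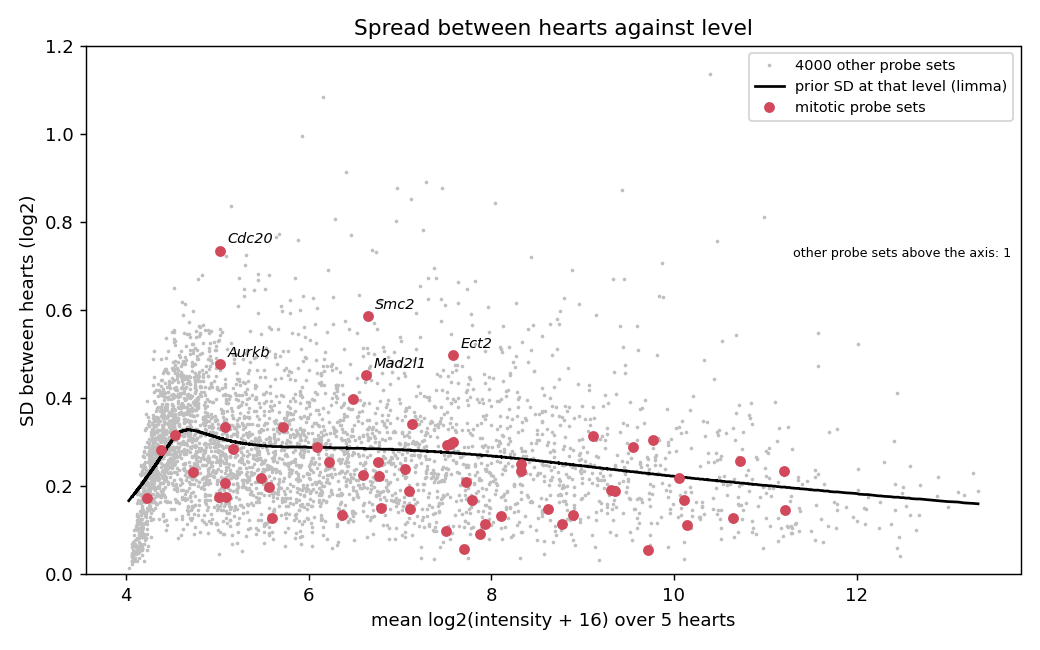
SD between the 5 hearts against the mean level, both on the log2(intensity + 16) scale, for the 58 mitotic probe sets (red) and a random draw of other probe sets (grey), with the prior SD of that level as a line. In 38 of 58 cases a mitotic probe set lies below the line, and the named genes are those with an SD above 0.45.

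Heart by heart, the mitotic genes lay slightly higher in heart 6 and slightly lower in heart 7. The median deviation of the 58 probe sets from their own means over hearts was 0.10, -0.08, -0.01, -0.02 and 0.02 in hearts 6 to 10. Over all probe sets these medians were 0.00, 0.00, 0.02, -0.01 and -0.02. In heart 6, 38 of 58 member probe sets exceeded their own mean (65.5%, against 50.4% of all), and in heart 7 it was 19 (32.8%, against 50.2%). In whole hearts, fewer dividing cells and less mitotic RNA per cell cannot be told apart.

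The highest value of a member probe set fell in heart 6 for 21 of them (36.2%, against 20.1% of all probe sets) and in heart 7 for 7, against 25.6% of all. Hearts 8, 9 and 10 each gave the highest value for 10 members (17.2%), where they gave it for 25.4%, 14.8% and 14.0% of all probe sets. The lowest value fell in heart 7 for 19 members (32.8%, against 24.5% of all) and in heart 8 for 18, against 19.5% of all. It fell in heart 6 for 6 members (10.3%, against 19.3%), in heart 9 for 10 (17.2%, against 17.0%) and in heart 10 for 5 (8.62%, against 19.6%). Heart 8 was thus often lowest although its median deviation was near 0. These are descriptions without a test. Without heart 7, the median deviation of heart 6 was 0.11.

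**Figure D4:**
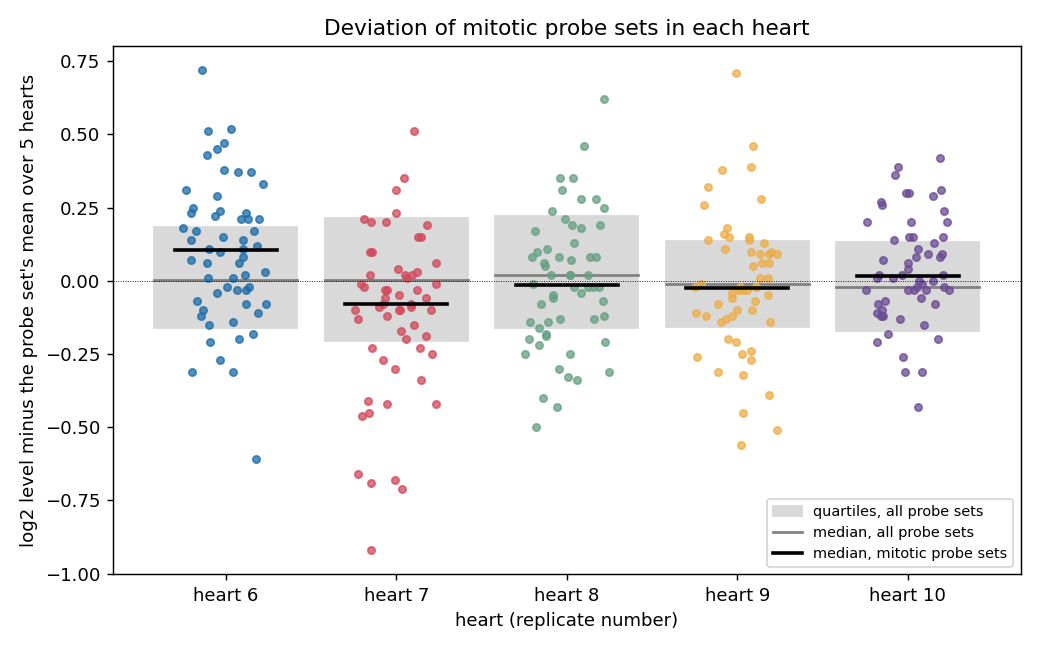
Deviation of each mitotic probe set from its own mean over hearts (points, log2) in hearts 6 to 10, with the median of the 58 mitotic probe sets (black line) and the median and quartiles of all probe sets (grey). The mitotic median lies at 0.10 in heart 6 and -0.08 in heart 7, where the median of all probe sets is 0.00.

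By role, the median deviation in heart 7 was below 0 for all 7 roles. It was -0.19 for spindle and cytokinesis genes, -0.13 for chromosome structure and -0.08 for anaphase onset, and between -0.06 and -0.01 for the other 4 roles. In heart 6 it was 0.15 for the kinetochore genes, 0.12 for chromosome structure, 0.10 for both the checkpoint and the spindle genes and 0.03 for anaphase onset, but -0.07 for cyclins and kinases and -0.08 for passenger genes. Other cell types differed in the same hearts. The median deviation of 19 erythroid probe sets was -0.09 in heart 6 and 0.52 in heart 7, that of 13 endothelial probe sets 0.11 and -0.28, and that of 15 mesenchymal probe sets 0.01 and -0.23. For 19 cardiomyocyte probe sets it was -0.07 and 0.10, and for the 79 probe sets of unrelated tissues -0.08 and 0.08, opposite in sign to the mitotic genes in both hearts. The part of these cell types, and of the background and Gapdh ratio of heart 7, in the mitotic deviations was not tested.

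Probe sets of the same gene often ranked the hearts differently. Of 11 member genes with more than 1 detected probe set, 2 (Bub3 and Prc1) had the same highest heart by all of them, 1 (Ncaph) the same lowest heart, and none both. A rank of hearts from a single probe set of these 11 genes was thus rarely that of the gene's other probe sets. The same counts were not made over all genes, so they are not shown to be particular to the members.

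Further genes of mitosis and of other cell cycle phases were read beside the members. Of 44 other mitotic genes measured, 38 were detected (86.4%), among them the spindle motor genes Kif11 (6.71 ± 0.09 by 1452315_at), Kif20a (6.78 ± 0.24) and Kif23 (8.05 ± 0.23 by 1455990_at). Where a gene had several probe sets, the one of highest mean level is given here and for the lists that follow. By limma's prior variance test 0 of their 84 probe sets passed and 4 had an unadjusted p under 0.05. Their median deviation was 0.09 in heart 6 and -0.04 in heart 7.

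Of 20 DNA replication genes, 19 were detected, including the helicase subunit genes Mcm2 (7.86 ± 0.29 by 1434079_s_at), Mcm3 (9.03 ± 0.19 by 1420028_s_at) and Mcm4 (10.12 ± 0.14 by 1436708_x_at). These 3 probe sets are of kinds that can match other transcripts. Other probe sets gave 6.66 ± 0.05 for Mcm2 (1448777_at), 8.55 ± 0.14 for Mcm3 (1420029_at) and 8.63 ± 0.49 for Mcm4 (1416214_at). Tyms, for thymidylate synthase, exceeded background by 1 of its 3 probe sets in heart 10 alone. By the variance test 0 of their 39 probe sets passed and 5 had an unadjusted p under 0.05. The replication genes had median deviations of 0.09 in heart 6, 0.03 in heart 7 and -0.10 in heart 8, so heart 8 rather than heart 7 was lowest for them.

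The genes of G1 phase were detected less completely, 7 of 12 (58.3%), close to the share of all genes. The D-type cyclins, which carry growth signals into the cell cycle, were detected, with Ccnd1 at 8.97 ± 0.14 by 1448698_at, Ccnd2 at 11.33 ± 0.23 by 1434745_at and Ccnd3 at 8.95 ± 0.22. Ccne2, Cdk2, Cdk6, Rb1 and Rbl2 were not detected in all hearts. Of 7 inhibitors of cyclin-dependent kinases, 4 were detected, including Cdkn1a (6.88 ± 0.08 by 1424638_at), Cdkn1b (7.77 ± 0.65 by 1419497_at) and Cdkn1c (8.98 ± 0.22). The INK4 genes Cdkn2a, Cdkn2b and Cdkn2c were not detected in all hearts, whereas the INK4 gene Cdkn2d was, at 6.03 ± 0.15. By the variance test 0 of 25 G1 probe sets and 0 of 9 inhibitor probe sets passed, with 2 and 1 at an unadjusted p under 0.05. In heart 7 the median deviation was -0.10 for the G1 genes and -0.13 for the inhibitors, so low values in that heart were also seen in these lists. In heart 8 it was 0.19 and 0.11.

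**Figure D5:**
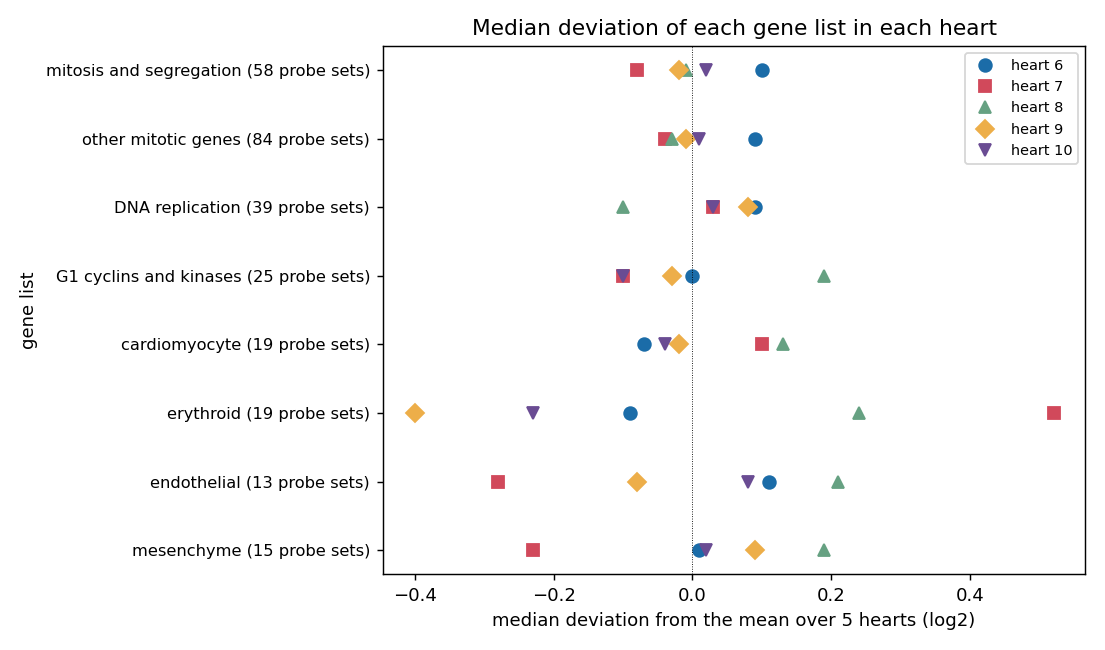
Median deviation from the mean over 5 hearts (log2) of each gene list in hearts 6 to 10, with the number of probe sets beside each list. The mitotic members and the other mitotic genes are both highest in heart 6 and lowest in heart 7, while the erythroid genes spread from -0.40 in heart 9 to 0.52 in heart 7.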

How the data were processed

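Per the labels, RNA of 5 whole hearts was hybridised to 5 Affymetrix 430A arrays. The deposited table holds 1 linear intensity for each of 22690 probe sets. Per the submitters' processing notes these came from GCOS, with version and algorithm not given in the sources used here. Deposited intensities have the same 2% trimmed mean on every array (150), so a difference in total signal between hearts is not visible. The arrays give no read depth, and their number limits the precision.

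Of the probe sets, 20393 had 1 symbol in the platform annotation, 691 several and 1606 were not listed. Without 64 controls, 20380 were used. Each array was rescaled to the same trimmed mean and values were analysed as log2(intensity + 16), which compresses differences of weak genes. A fold range is 2 to the power of the log2 range on this scale. Variance was tested with R 4.3.3 and limma 3.58.1 (squeezeVar, robust, with a trend on level, 12.6 prior degrees of freedom against 4 residual), upper tail, with Benjamini-Hochberg adjustment over all probe sets. The prior comes from these same probe sets. The procedure was tested on simulated data for 20380 probe sets drawn from its own fitted model, where 4 probe sets without a shift were called. With 1 group there was no contrast.

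The members, lists and tests were chosen with earlier results of these data known. All members are named, with the first 3 measured genes of the context lists and genes not detected where there were 5 or fewer. Cdkn2d, Eif2s3y and Xist are named outside this rule. Single-heart ranks were described for all 5 hearts. Alternatives changed the scaling, the offset, the probe sets used, the background and the prior, and left out each heart.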

Additional observations from a re-analysis of the deposited data

Results flagged for a closer look

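Of the 58 member probe sets, 4 had 1 heart far from the other 4 by Dixon's ratio (gap to the nearest heart over the whole range, above 0.71). Chance flags about 1 in 20 such groups, and 7.86% of all probe sets here passed the same limit, against 6.90% of the members. Nek2 (1417299_at) reached 5.40 in heart 10 against 4.96 to 5.04 elsewhere. Zwint (1427539_a_at) reached 8.06 in heart 7 against 7.35 to 7.54 elsewhere. Birc5 (1424278_a_at) reached 11.47 in heart 8 against 11.10 to 11.19 elsewhere. Cdc20 (1416664_at) reached 7.16 in heart 9 against 6.61 to 6.75 elsewhere. Each lay in a different heart, and none passed limma's variance test.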

How the results depend on the processing

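Of 131 recomputed values, 121 stayed within 1.5 times the reported count or SD, or within 0.07 (1 SD of the hearts' medians) for a heart's median deviation. The median SD of the members fell to 0.146 at an offset of 64. The 9 calls of the variance test over all probe sets became 17 at an offset of 1, 5 without _x_at and _s_at probe sets, 5 with the probe set of highest mean per gene, 1 after averaging probe sets by gene and 2 with only detected probe sets. They became 2 with a prior that was not robust and 1 with a prior without trend. Leaving out 1 heart gave 4 calls without heart 8 to 16 without heart 7. No member was called in any of these runs. Detected member genes numbered 30 to 32 over all alternatives and detected probe sets 39 to 50, the fewest without _x_at and _s_at probe sets. Heart 6 had a median deviation of 0.07 to 0.12 and heart 7 of -0.09 to -0.05. That of heart 10 ran from -0.01 without heart 7 to 0.07 with the probe set of highest mean per gene. The limit of 0.07 is nearly as wide as the reported medians of hearts 6 and 7, so staying within it says little. Mean levels of 24 probe sets at an offset of 1 and of 42 at 64 moved by more than 1 SD, as the offset itself enters the level. No paired analysis was possible because all hearts form 1 group. Signal near background limits Aurkb, Nek2 and the other undetected probe sets.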
